A study of Mus musculus with 12 samples.

Results

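The comparison described here sets the striatum of all 6 R6/2 mice against that of all 6 wild-type mice of the study, whatever chow they ate. Its members are 12 of the 12 libraries and all 15397 genes measured in them. R6/2 mice carry the first exon of the human huntingtin gene with an expanded CAG repeat, under the human huntingtin promoter, and are used as a fast model of Huntington's disease. All mice were labelled C57BL/6. Each of the 4 groups held 3 mice: wild type on vehicle, wild type on PLX3397, R6/2 on vehicle and R6/2 on PLX3397. PLX3397 blocks Csf1r, the receptor that microglia need to survive, and was fed at 275 ppm in chow from 7 to 11 weeks of age. With genotype and treatment as separate terms of 1 model, each gene received a single genotype difference averaged over both treatments.

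The striatum consists mainly of medium spiny neurons, inhibitory projection neurons of a direct pathway class with dopamine D1 receptors, dynorphin and substance P, and an indirect pathway class with dopamine D2 receptors, adenosine A2a receptors and enkephalin. Loss of the transcripts that define these neurons is a known feature of Huntington's disease tissue and of its mouse models. Interferon-stimulated genes, the other group that the results turn on, are induced through transcription factors that bind a short promoter element described further below.

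Levels are log2 CPM, that is counts scaled to a library size. A prior of about 2 reads was added before the log, so fold changes of low genes are understated. The antilogs of a library summed to 920461 to 1070703, so that size was not the plain library total. Each library held 18902120 to 24293208 recovered reads. A difference is R6/2 minus wild type on the log2 scale, given with its standard error (SE) from limma. A gene counts as called where the p adjusted by Benjamini-Hochberg over the 15397 genes was below 0.05. The drug acted in both genotypes: the mean level of 26 homeostatic microglia genes was 4.28 to 4.83 in the 6 vehicle libraries and -0.53 to 0.88 in the 6 PLX3397 libraries. Markers of neighbouring tissue varied between libraries. The mean of 16 cortical excitatory neuron genes was 3.28 and 3.49 in libraries 1 and 2 of R6/2 on PLX3397 and 3.77 in library 1 of wild type on PLX3397, against 4.82 to 6.35 elsewhere. The mean of 13 choroid plexus and ependyma genes was 4.55 in library 1 of R6/2 on vehicle and 4.44 in library 1 of wild type on PLX3397, against 1.55 to 3.78 elsewhere. Of these 13 genes 4 were called lower in R6/2, and their median difference was -0.76. Their mean, used below as a covariate, can thus take up part of the genotype difference. Calls can be lost with it for that reason. Counts given below with these libraries left out were chosen after the data were seen.

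The labels were checked on Gm12695, a predicted gene at the reported insertion site of the R6/2 transgene, chosen after its values were seen (gene ID 620779; GRCm38 chromosome 4, 96723581 to 96786830). It had 0 to 12 reads in the wild-type libraries and 47 to 140 in the R6/2 libraries, and the genotypes did not overlap (adjusted p = 0.000726). Mouse Htt does not check the human transgene. Its level was 7.48 ± 0.41 in wild type against 7.91 ± 0.30 in R6/2 (SD, n = 6), and it was not called (adjusted p = 0.182). With both libraries high in choroid plexus genes left out it was called (0.0147), as with library weights (0.0251).

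Of the 15397 genes, 2030 were called, 13.2% of those tested. Of these, 808 were higher in R6/2 (5.25%) and 1222 were lower (7.94%), and 4574 genes had an unadjusted p under 0.05. Large changes were mostly falls: 632 called genes fell at least 2-fold and 136 at least 4-fold, while 161 rose at least 2-fold and 14 at least 4-fold. The median size of a called change was 0.83, and the median difference of all genes was 0.01. In 1120 genes (7.27%) no R6/2 library overlapped any wild-type library, and 1035 of these were called (383 higher and 652 lower). With any 1 library left out, 1031 genes kept their call (313 higher and 718 lower). The count dropped to 1237 without library 1 and to 1150 without library 3 of R6/2 on PLX3397. It was 2543 with both choroid-high libraries left out, 1131 without the 3 libraries low in cortical genes, and 775 with the mean of the choroid plexus genes as a covariate.

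The average combines a pair of comparisons that share no library, and across the genome these had little in common. Fitted on the 6 vehicle libraries alone, 429 genes were called (2.79%, 73 higher and 356 lower). Fitted on the 6 PLX3397 libraries alone, 2934 were called (19.1%, 1489 higher and 1445 lower). Of all genes, 50.1% had the same sign in both treatments. Of the 429 genes called on vehicle, 293 (68.3%) had the same sign under PLX3397. In both fits 172 genes were called, which is 40.1% of the vehicle list and 5.86% of the PLX3397 list. Of these, 140 were lower and 22 higher in R6/2 in both treatments. A test of the difference itself, the genotype by drug interaction, called 2617 genes (17.0%), of which 245 were also called for genotype. All 2030 genes called in the average had the same sign in both treatments, a pattern that choosing genes by their average favours.

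**Figure D1:**
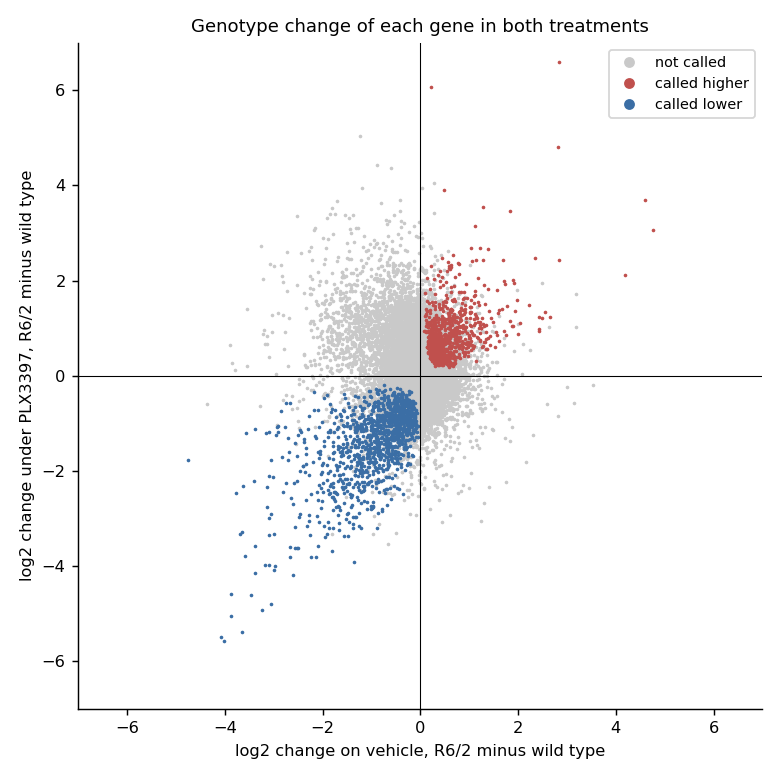
Each point is 1 of 15397 genes, with its R6/2 minus wild-type difference on vehicle (x axis, log2) and under PLX3397 (y axis, log2); genes called in the averaged comparison are coloured, blue for lower and red for higher in R6/2. The called genes lie in the lower left and upper right of the plot, and blue points outnumber red ones far from 0.

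Transcripts of medium spiny neurons made up the list with the most called falls. Of 35 genes shared by both classes of these neurons, 30 fell (85.7%, against 7.94% of all genes) and 0 rose. All 35 had a negative difference. The median was -1.88 (-1.71 on vehicle and -2.08 under PLX3397), against 0.01 over all genes. In 21 of them every R6/2 library lay below every wild-type library. The list holds genes known to fall in such mice and was compiled with earlier results of these data known, so its count is no independent evidence. In tissue RNA, fewer neurons and less RNA per neuron cannot be told apart. The mean level of the list was 7.69 to 9.32 in wild type and 5.96 to 7.35 in R6/2, without overlap.

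Scn4b, an auxiliary subunit of voltage-gated sodium channels (gene ID 399548; GRCm38 chromosome 9, 45138624 to 45154155), had a lowest, median and highest level of 8.87, 10.35 and 11.63 log2 CPM in wild type, and of 4.76, 6.55 and 6.90 in R6/2. The fall was 18.7-fold (difference -4.23 ± 0.49, SE; adjusted p = 0.000726). Ppp1r1b encodes DARPP-32, a phosphatase inhibitor through which dopamine acts on these neurons (gene ID 19049; GRCm38 chromosome 11, 98348406 to 98357796). It ran from 9.07 to 11.41 in wild type, with a median of 10.55, and from 6.14 to 8.42 in R6/2, with a median of 7.34. It fell 8.34-fold (-3.06 ± 0.40; adjusted p = 0.00117). For both genes the highest R6/2 library was below the lowest wild-type library. Ryr1, an intracellular calcium release channel, fell 11.1-fold, from 6.29 ± 0.71 to 2.82 ± 0.67 (SD, n = 6; adjusted p = 0.000371). Rasgrp2, an exchange factor for the small GTPase Rap, fell 6.36-fold, with R6/2 values of 4.55 to 5.72 and wild-type values of 6.48 to 8.96 (adjusted p = 0.000385). Rasd2, the striatal GTPase Rhes that binds mutant huntingtin, went from 9.35 ± 0.84 to 6.61 ± 0.68 (6.67-fold lower; adjusted p = 0.00161). Ptpn5, the striatum-enriched tyrosine phosphatase STEP, fell 3.00-fold, with wild-type levels of 8.80 to 10.08 and R6/2 levels of 7.56 to 8.19 (adjusted p = 0.000664). The members not called were Strip2, Ano3, Itpr1, Foxp1 and Ppp2r2c, with differences of -1.04, -1.95, -1.13, -1.01 and -0.40 and adjusted p from 0.0532 to 0.174.

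Among indirect pathway markers, 7 of 9 fell (77.8%, against 7.94% of all genes) and 0 rose, with a median of -2.72. In 6 of the 9 the genotypes did not overlap, against 7.27% of all genes. Penk, the enkephalin precursor (gene ID 18619; GRCm38 chromosome 4, 4133536 to 4138815), had a lowest, median and highest level of 9.29, 10.34 and 11.03 in wild type, and of 6.10, 7.17 and 8.12 in R6/2. Its difference was -3.09 on vehicle and -3.36 under PLX3397, and -3.23 ± 0.27 on average (9.35-fold lower; adjusted p = 0.000371). Adora2a, the adenosine A2a receptor, fell 8.81-fold (8.40 ± 0.81 to 5.26 ± 0.92; adjusted p = 0.00161) and Drd2, the dopamine D2 receptor, 6.60-fold (7.26 ± 0.84 to 4.54 ± 0.81; adjusted p = 0.00188). Gpr6, an orphan receptor of the same neurons, fell 8.55-fold, with wild-type levels of 4.65 to 6.91 and R6/2 levels of 1.79 to 3.93. Upb1, an enzyme of pyrimidine breakdown, held 56 to 98 reads in the wild-type libraries and 2 to 19 in the R6/2 libraries. None of these 5 genes overlapped between genotypes. The remaining markers Grik3 and Ptprm were not called (differences -0.51 and 0.01).

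Of 9 direct pathway markers 5 fell (55.6%, against 7.94% of all genes) and 0 rose, with a median of -1.50. Drd1, the dopamine D1 receptor, had a lowest, median and highest level of 6.48, 7.88 and 8.80 in wild type, and of 4.06, 5.48 and 6.30 in R6/2, a 5.59-fold fall (-2.48 ± 0.41; adjusted p = 0.00355). Pdyn, the dynorphin precursor, fell 3.99-fold (5.39 ± 0.36 to 3.39 ± 0.87; adjusted p = 0.00199) and Chrm4, the muscarinic M4 receptor, 4.33-fold (adjusted p = 0.00219). Tac1, the substance P precursor, fell 2.82-fold with overlap: the highest R6/2 library was at 7.22 and the lowest wild-type library at 6.58 (adjusted p = 0.00581). Isl1, Eya1, Ebf1 and Sfxn1 were not called, with differences between -0.56 and 0.24. Whether the classes of neuron differ from each other was not tested. With any 1 library left out the count of the shared list was 28 to 32, and those of the indirect and direct lists stayed at 7 and 5.

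**Figure D2:**
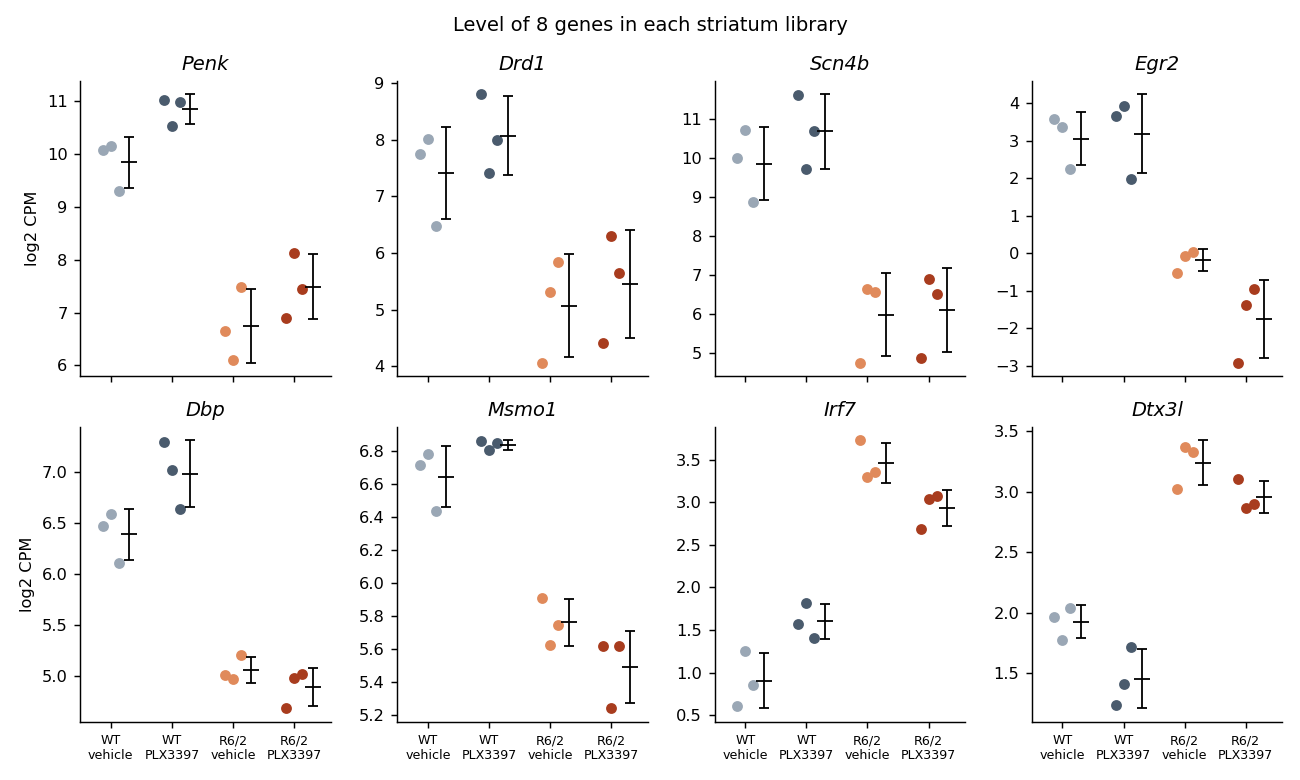
Level of 8 genes (log2 CPM, each panel with its own y range) in the 12 libraries by group, as points per library with the group mean and SD (n = 3). Penk, Drd1, Scn4b, Egr2, Dbp and Msmo1 were lower, and Irf7 and Dtx3l higher, in every R6/2 library than in any wild-type library.

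Several of the largest falls lay outside these marker lists. Ptpn7, a tyrosine phosphatase that acts on MAP kinases (gene ID 320139; GRCm38 chromosome 1, 135131838 to 135145328), held 87 to 450 reads in the wild-type libraries and 1 to 24 in the R6/2 libraries, a 27.7-fold fall (-4.79 ± 0.60; adjusted p = 0.000905). Cd4, best known as the co-receptor of helper T cells (gene ID 12504; GRCm38 chromosome 6, 124864693 to 124888247), was at 4.57 to 7.49 in wild type and -0.90 to 3.01 in R6/2, and fell 22.9-fold (adjusted p = 0.00199). It was the 1 gene measured of 11 T cell, B cell and neutrophil markers listed. Lrrc10b fell 15.2-fold and Ankk1, a neighbour of Drd2 in the genome, 11.4-fold. Dmkn, which encodes dermokine, had 127 to 467 reads in wild type and 15 to 46 in R6/2. Kcnh4, a potassium channel, fell 11.3-fold and Abhd11os, a noncoding transcript, 10.5-fold. Strand use in the counting is not given in the sources used here, so reads of Abhd11os and of a gene on the opposite strand may not be separated. None of these 7 genes overlapped between genotypes, while 7.27% of all genes were without overlap. The naming rule took the largest falls from genes without overlap within either treatment, which favours this result.

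Smaller falls with little spread gave some of the smallest p-values. Syt12, a synaptotagmin, was at 5.19 to 5.93 in wild type and at 4.09 to 4.26 in R6/2, with an SD of 0.06 over the 6 R6/2 libraries (2.47-fold lower; adjusted p = 0.000371). Traip, a ubiquitin ligase of DNA replication, fell 3.63-fold (5.28 ± 0.39 to 3.42 ± 0.26). Ier5l fell 5.95-fold, Fst, the activin antagonist follistatin, 6.13-fold, and Slc4a11, a membrane transporter, 7.36-fold, all with the same adjusted p as Syt12. Phex, Impg1 and Clspn were also among the 15 largest falls chosen by the naming rule, at 8.90-fold, 8.70-fold and 9.43-fold. That rule asked for no overlap within either treatment. Over both treatments only Clspn of these 3 overlapped, with a lowest wild-type level of 2.60 and a highest R6/2 level of 2.64.

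Immediate early genes, which neurons transcribe within minutes of activity, were lower in R6/2. Of 23 measured, 14 fell (60.9%, against 7.94% of all genes) and 0 rose. The median was -1.02 (-0.70 on vehicle and -1.40 under PLX3397). Egr2, a zinc finger transcription factor, held 78 to 345 reads in the wild-type libraries and 1 to 18 in the R6/2 libraries, a 17.0-fold fall (-4.09 ± 0.48; adjusted p = 0.000726). Npas4, an activity-dependent transcription factor, fell 6.42-fold, with wild-type levels of 4.34 to 6.34 and R6/2 levels of 2.20 to 3.46 (adjusted p = 0.00131). Arc, a regulator of glutamate receptor trafficking, fell 3.72-fold (7.21 ± 0.51 to 5.31 ± 0.86; adjusted p = 0.00619), and Dusp1, a MAP kinase phosphatase, 2.25-fold (4.38 ± 0.34 to 3.21 ± 0.27; adjusted p = 0.00255). In none of the 4, which had the smallest p of the list, did the genotypes overlap. Of all 23 genes 8 were without overlap, against 7.27% of all genes tested. Bdnf, the growth factor that cortical axons bring to the striatum, was not called (2.69 ± 1.73 against 3.09 ± 0.72; adjusted p = 0.715). The count of 14 became 9 without library 1 of wild type on vehicle, 8 with both choroid-high libraries left out, 6 without the 3 libraries low in cortical genes and 6 with the choroid plexus covariate. Egr2, Npas4, Arc and Dusp1 kept their calls in each of these.

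Of 17 circadian clock genes 7 fell (41.2%, against 7.94% of all genes) and 0 rose, with a median of -0.58. In all 7 called genes the genotypes did not overlap. Dbp, a transcription factor that the clock drives directly, had a lowest, median and highest level of 6.11, 6.62 and 7.30 in wild type, and of 4.68, 4.99 and 5.20 in R6/2 (3.28-fold lower; adjusted p = 0.000371). Its relative Tef fell 1.69-fold (9.13 ± 0.24 to 8.37 ± 0.16), Ciart, a repressor of the clock, 2.18-fold (3.91 ± 0.38 to 2.79 ± 0.19), and Per3, a period gene, 1.79-fold (6.17 ± 0.33 to 5.33 ± 0.20). The core activators Arntl and Clock and the repressor Nr1d2 were not called (differences -0.17, 0.38 and 0.13).

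Transcripts for proteins that couple dopamine receptors to cyclic nucleotides were lower in part. Of 26 phosphodiesterases, adenylyl cyclases and RGS proteins, 11 fell and 1, Pde4d, rose, a called share of 46.2% against 13.2% of all genes. Rgs2, which turns off Gq signalling, fell 2.86-fold (7.04 ± 0.27 to 5.53 ± 0.34; adjusted p = 0.000371), and Rgs20 fell 3.15-fold (5.95 ± 0.40 to 4.30 ± 0.30; adjusted p = 0.000588). Rgs9, a striatal regulator of dopamine receptor signalling, fell 6.32-fold. Pde10a and Pde1b, phosphodiesterases abundant in medium spiny neurons, fell 6.21-fold (10.14 ± 1.01 to 7.51 ± 0.78) and 4.29-fold (10.28 ± 0.73 to 8.18 ± 0.49). Rgs9, Pde10a, Pde1b, Adcy5, Rgs14 and Pde2a are also among the medium spiny neuron genes above, so these counts share members.

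Ion channels and transmitter receptors changed in a minority of cases. Of 30 potassium channel genes 10 fell (33.3%, against 7.94% of all genes) and 0 rose. Besides Kcnh4, these included Kcnip2, a modulator of A-type channels, which fell 3.77-fold (7.40 ± 0.55 to 5.48 ± 0.59), Kcnab1, a channel beta subunit, 3.51-fold, and Kcnk2, a background channel, 2.40-fold. The count was 5 with the choroid plexus covariate. Of 27 glutamate receptor and scaffold genes 5 fell, among them the metabotropic receptors Grm4 (2.96-fold, 5.41 ± 0.51 to 3.85 ± 0.36) and Grm3 (2.19-fold, 6.10 ± 0.36 to 4.97 ± 0.37), the NMDA receptor subunit Grin2c and the scaffolds Dlg4 and Shank3. These 5 are 18.5% of the list, against 13.2% of all genes called, and the list median was -0.61 on vehicle and 0.17 under PLX3397. With the PLX3397 libraries alone 4 members were called higher and 5 lower, and 8 fell without the 3 libraries low in cortical genes. Of 14 GABA-A receptor genes Gabrd, the delta subunit of extrasynaptic receptors, was the 1 gene called. It had a lowest, median and highest level of 6.04, 7.16 and 7.91 in wild type, and of 2.68, 5.09 and 5.59 in R6/2 (5.52-fold lower; adjusted p = 0.00796). The median of this list was -0.96 on vehicle and 1.21 under PLX3397. Cplx2, a complexin of the vesicle release machinery, fell 2.36-fold without overlap (10.63 ± 0.27 to 9.39 ± 0.30; adjusted p = 0.00161), while 20 of 24 synaptic vesicle genes were not called. The called share of that list was 16.7%, close to the 13.2% of all genes.

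Interneuron transcripts were lower for some markers and not called for others. Of 17 GABA interneuron genes 5 fell (29.4%, against 7.94% of all genes). Sst, the somatostatin precursor, was at 6.86 to 8.44 in wild type and 5.78 to 6.39 in R6/2 (2.64-fold lower; adjusted p = 0.00507). Pthlh, a parathyroid hormone-like peptide, fell 4.75-fold (adjusted p = 0.00411) and Cox6a2, a cytochrome oxidase subunit, 2.70-fold (adjusted p = 0.00417), both without overlap. Tacr1, the substance P receptor, fell 2.98-fold (5.09 ± 0.58 to 3.51 ± 0.94; adjusted p = 0.0127, or 0.0723 with the choroid plexus covariate). Pvalb, the parvalbumin gene, was at 5.14 ± 0.83 in wild type and 4.94 ± 0.58 in R6/2 and was not called (adjusted p = 0.730). Gad1, which makes GABA in interneurons and medium spiny neurons alike, fell 1.97-fold on average (adjusted p = 0.0185, or 0.0540 with the choroid plexus covariate). Its difference was -1.57 on vehicle and -0.39 under PLX3397, with an interaction adjusted p of 0.0315.

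Cholinergic interneuron genes fell in 4 of 10 cases. The list median was -2.81 on vehicle and 0.26 under PLX3397. The interaction was called for 5 of the 10, against 17.0% of all genes. Slc18a3, the vesicular acetylcholine transporter, was at 0.00, -0.07 and 0.88 in the R6/2 vehicle libraries and at 2.34, 3.12 and 1.24 in the R6/2 PLX3397 libraries, against 2.37 to 4.08 in wild type. Its averaged fall was 3.49-fold (adjusted p = 0.0110). Chat, which makes acetylcholine, fell 4.03-fold (adjusted p = 0.0210, or 0.0529 without library 3 of R6/2 on PLX3397). The interaction was not called for either gene. Slc18a3 lies inside the Chat locus, so reads of the pair may not be fully separated. The mean of 15 thalamic, septal and pallidal genes, markers of neighbouring regions, was 3.74 to 4.52 in wild type and 2.57 to 3.78 in R6/2 on vehicle, and 2.43 to 3.93 and 3.14 to 4.37 under PLX3397. The median difference of these genes was -0.84 on vehicle and 0.68 under PLX3397, so it changed sign with treatment as that of the cholinergic list did. Gbx2 is a member of both lists. The part of neighbouring regions in the cholinergic differences was not tested. The cholinergic count was 7 without the 3 libraries low in cortical genes.

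Genes of the cholesterol synthesis list fell in 12 of 24 cases and rose in 0, with a median of -0.46. Msmo1, a sterol oxidase, had a lowest, median and highest level of 6.43, 6.79 and 6.86 in wild type, and of 5.24, 5.62 and 5.91 in R6/2 (2.16-fold lower; adjusted p = 0.000588). Fdft1, which makes squalene, fell 1.95-fold (6.56 ± 0.41 to 5.60 ± 0.22), and Insig1, which holds back activation of the pathway, 1.70-fold (5.85 ± 0.15 to 5.09 ± 0.26). In these 3 genes no R6/2 library reached the wild-type range. The count was 7 without library 3 of wild type or library 2 of R6/2 on PLX3397, 6 without the 3 libraries low in cortical genes and 5 with the choroid plexus covariate. The 3 genes kept their calls in each of these.

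Myelin genes fell in 9 of 21 cases (42.9%, against 7.94% of all genes), and all 21 had a negative difference (median -0.55). Mal, a proteolipid of compact myelin, was at 8.57 to 9.31 in wild type and 7.22 to 8.14 in R6/2 (2.38-fold lower; adjusted p = 0.00330). Fa2h, which makes hydroxylated fatty acids of myelin lipids, was at 5.92 to 6.93 and 4.73 to 5.84 (2.47-fold lower; adjusted p = 0.00417). Mbp, the myelin basic protein, had a difference of -0.79 and was called in 2 of the 12 sets that leave out 1 library, while Mog, Mag and Cnp were not called (differences -0.50, -0.42 and -0.40). The count was 14 without library 1 and 5 without library 2 of R6/2 on vehicle, 4 without the 3 libraries low in cortical genes and 2 with the choroid plexus covariate. Enpp2 is on both the myelin list and the list behind that covariate. Of 15 oligodendrocyte precursor genes Cacng4, a regulator of AMPA receptors, was the 1 gene called (2.60-fold lower). Pdgfra, the receptor that defines these cells, was not called (5.53 ± 0.86 against 5.91 ± 0.23; adjusted p = 0.304).

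Of 21 astrocyte genes 7 fell by modest amounts (33.3%, against 7.94% of all genes). Aldoc, a glycolytic enzyme, was at 9.41 to 9.92 in wild type and 8.61 to 9.32 in R6/2 (1.60-fold lower; adjusted p = 0.00676). Ntsr2, a neurotensin receptor, went from 7.07 ± 0.13 to 6.33 ± 0.40 (adjusted p = 0.0139), but its adjusted p was 0.0671 with the choroid plexus covariate and 0.0656 without the 3 libraries low in cortical genes. Gfap, the intermediate filament that rises in reactive astrocytes, was at 8.09 ± 0.74 in wild type and 7.11 ± 0.91 in R6/2 and was not called (adjusted p = 0.159). The count was 4 without library 1 of wild type on PLX3397, library 2 of R6/2 on vehicle or either of libraries 2 and 3 of R6/2 on PLX3397. It was 2 with the choroid plexus covariate (1 of each direction) and 1 without the 3 libraries low in cortical genes.

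Interferon-stimulated genes gave more called rises than any other list used here. Of 33 measured, 24 rose (72.7%, against 5.25% of all genes) and 0 fell. All 33 had a positive difference, and the median was 1.05 (1.02 on vehicle and 1.10 under PLX3397). Many promoters of this group carry the interferon-stimulated response element (ISRE), searched here as GAAANNGAAA on either strand in windows of 300 bases around the transcription starts of RefSeq on GRCm38.p6. A match was found in 14 of 24 members with a promoter sequence (58.3%), against 410 of 11814 measured genes (3.47%), 44 of 630 called higher (6.98%) and 33 of 926 called lower (3.56%). Within the list, 8 of the 14 genes with a match and 9 of the 10 without one were called, with median differences of 0.98 and 1.01. The bases before the start are shown for 4 called genes as examples of the element, 5′ to 3′ on the strand of the gene, with the matches in capitals:
Ifit1 (chr19:34640639-34640888, plus strand; a sensor of foreign RNA, matches beginning 104 and 85 bases before the start): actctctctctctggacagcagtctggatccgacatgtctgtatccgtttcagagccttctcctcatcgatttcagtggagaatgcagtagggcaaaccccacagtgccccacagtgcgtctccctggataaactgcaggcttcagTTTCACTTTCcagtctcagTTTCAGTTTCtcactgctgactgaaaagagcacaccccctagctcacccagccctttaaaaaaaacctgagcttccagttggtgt
Ifit3 (chr19:34583279-34583528, plus strand; a relative of Ifit1, matches 156 and 122 bases before the start): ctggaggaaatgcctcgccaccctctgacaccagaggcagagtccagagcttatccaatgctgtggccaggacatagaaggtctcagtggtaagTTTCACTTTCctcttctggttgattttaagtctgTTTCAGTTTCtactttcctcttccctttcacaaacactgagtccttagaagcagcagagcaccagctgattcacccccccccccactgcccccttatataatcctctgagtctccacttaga
Gbp3 (chr3:142559794-142560043, plus strand; a guanylate-binding protein, overlapping matches 45 and 39 bases before the start): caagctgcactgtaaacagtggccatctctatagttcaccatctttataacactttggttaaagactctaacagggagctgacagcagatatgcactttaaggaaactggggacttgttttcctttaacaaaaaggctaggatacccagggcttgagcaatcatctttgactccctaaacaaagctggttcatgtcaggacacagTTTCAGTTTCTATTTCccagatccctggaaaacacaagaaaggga
Rsad2 (chr12:26456453-26456702, minus strand; viperin, match 120 bases before the start): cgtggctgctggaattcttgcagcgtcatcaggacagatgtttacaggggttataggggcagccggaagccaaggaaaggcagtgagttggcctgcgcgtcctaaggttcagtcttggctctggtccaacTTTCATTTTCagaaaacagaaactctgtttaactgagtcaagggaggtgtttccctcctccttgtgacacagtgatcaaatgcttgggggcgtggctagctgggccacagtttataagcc

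Irf7, a transcription factor that amplifies interferon production (gene ID 54123; GRCm38 chromosome 7, 141263183 to 141266499), had 26 to 79 reads in the wild-type libraries and 157 to 349 in the R6/2 libraries. Its lowest, median and highest levels were 0.61, 1.33 and 1.82 in wild type, and 2.69, 3.19 and 3.73 in R6/2, a 3.85-fold rise (1.94 ± 0.24; adjusted p = 0.000836). The rise was 2.56 on vehicle and 1.33 under PLX3397, with an interaction adjusted p of 0.0309. Ifit1, whose promoter is shown above, rose 3.56-fold (1.21 ± 0.48 to 3.04 ± 0.33; adjusted p = 0.00118), by 1.74 on vehicle and 1.93 under PLX3397. Dtx3l, a ubiquitin ligase that works with Parp9 in this response, rose 2.65-fold and had the smallest p of the list (1.69 ± 0.31 to 3.10 ± 0.21; adjusted p = 0.000371). In all 3 genes every R6/2 library was above every wild-type library.

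Other members rose by similar amounts. Usp18, which removes the ubiquitin-like protein Isg15 from its targets, rose 3.61-fold, Oasl2, an oligoadenylate synthetase-like protein, 3.47-fold, and Ifi44 4.17-fold. Outside the list, genes that interferon is known to induce included Gbp6 (4.08-fold), the antiviral zinc finger protein Zc3hav1 (3.06-fold), Parp12 (2.29-fold) and the GTPase Irgm1 (2.31-fold). Those genes were picked by their own values in these data, so they are no independent evidence. Other interferon-induced genes outside the list were not counted. Irgm1 was at 2.77 to 3.13 in wild type and 3.94 to 4.36 in R6/2 (adjusted p = 0.000371). In 22 of the 33 list members all R6/2 libraries lay above all wild-type libraries, while 7.27% of all genes were without overlap. The 9 members not called included Gbp2, Ifitm3, Samd9l and Stat2 (differences 0.18, 0.28, 0.40 and 0.01). The others were Ifi27, Dhx58, Isg15, Bst2 and Ddx60 (0.37, 0.58, 0.76, 0.79 and 1.85). The Ifit, Oas and Gbp families hold similar copies among which reads may be split. With any 1 library left out 19 to 23 members were called. The mean of the list was 1.73 to 2.05 in wild type and 2.63 to 3.26 in R6/2. In both genotypes the PLX3397 libraries, whose microglial genes were low, lay inside the range of the vehicle libraries. This mean can hide members that moved in opposite ways. The interaction was called for 3 of the 33, against 17.0% of all genes. Under PLX3397 the rise was smaller for Irf7, and larger for Ifit2 (0.29 on vehicle and 1.46) and Ddx60 (0.29 and 3.42). The part of microglia in the rise was not tested.

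**Figure D3:**
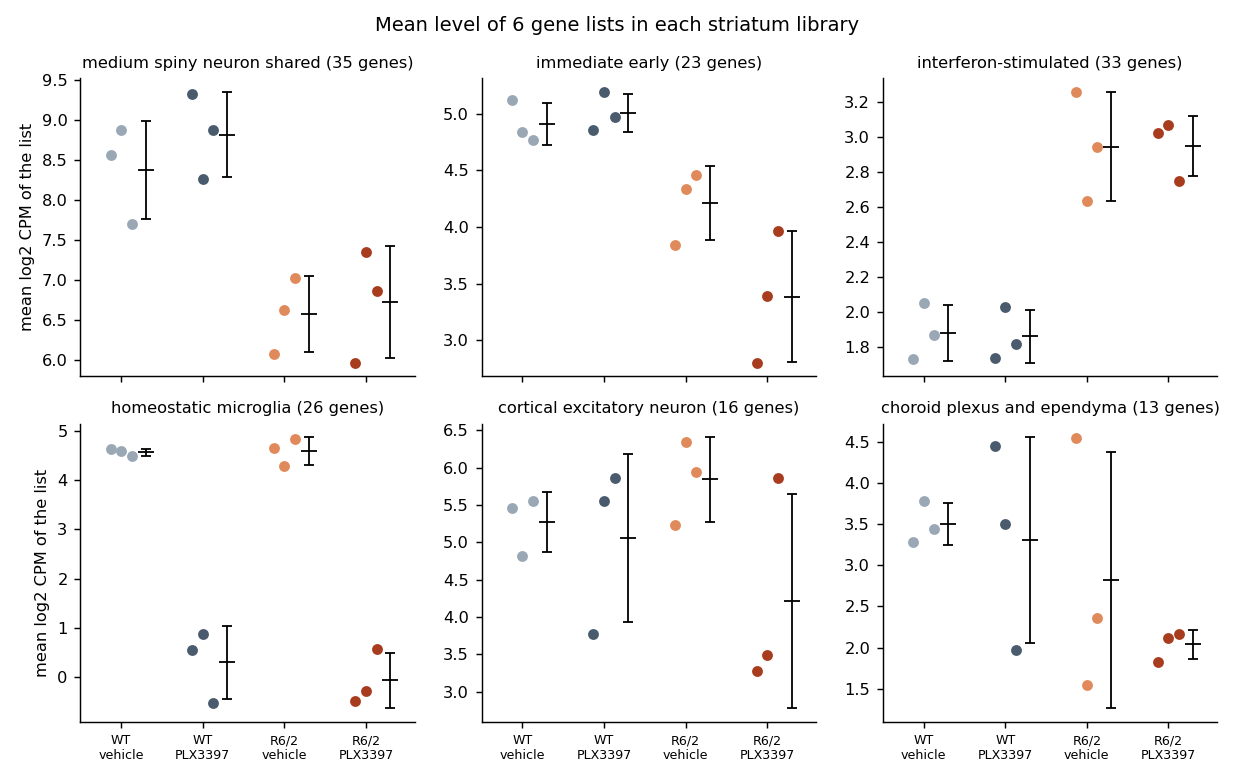
Mean level (log2 CPM) of 6 gene lists in the 12 libraries by group, as points per library with the group mean and SD (n = 3). Medium spiny neuron, immediate early and interferon-stimulated genes separated the genotypes, homeostatic microglia genes separated the treatments, and the cortical and choroid plexus lists varied within groups.

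Antigen presentation genes rose in 7 of 16 cases (43.8%, against 5.25% of all genes) and fell in 0. The median was 0.75 (0.94 on vehicle and 0.57 under PLX3397). H2-Q4, a class I molecule, was at 1.62 to 2.20 in wild type and 2.25 to 3.82 in R6/2 (2.19-fold higher; adjusted p = 0.0187). H2-K1, a classical class I molecule, rose 2.24-fold (3.95 ± 0.50 to 5.12 ± 0.64; adjusted p = 0.0275). Its adjusted p was 0.0549 without library 2 of wild type on PLX3397, 0.0598 without library 3 of R6/2 on vehicle and 0.0567 without library 2 of R6/2 on PLX3397. It was 0.0571 without the 3 libraries low in cortical genes. H2-D1 rose 3.13-fold (adjusted p = 0.0292), and without any 1 of 7 libraries its adjusted p was 0.0528 to 0.0678. The list count was 2 in 5 of the 12 sets that leave out 1 library. These were the sets without wild type 1 on vehicle, wild type 3 on PLX3397, R6/2 3 on vehicle, and R6/2 1 or 2 on PLX3397. It was 4 without wild type 2 on vehicle or R6/2 3 on PLX3397, and 2 without the 3 libraries low in cortical genes. Class I genes are similar to each other and reads can be split between them. B2m, their shared light chain, Cd74 and Psmb8 were not called (differences 0.48, 0.56 and 0.60).

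Genes of embryonic patterning were detected at low levels in R6/2. Of 40 homeobox and developmental regulators listed 12 were measured, and 4 of those rose. Pax2, a paired-box factor of kidney and hindbrain development (gene ID 18504; GRCm38 chromosome 19, 44746601 to 44838269), had 0 to 1 reads in the wild-type libraries and 8 to 188 in the R6/2 libraries (adjusted p = 0.00181). Pou4f1, a POU factor of sensory neurons, had 0 to 2 reads in wild type and 13 to 93 in R6/2 (adjusted p = 0.000588), and Twist1, a factor of mesoderm, 1 to 7 and 8 to 154 (adjusted p = 0.00541). In each of the 3 the lowest R6/2 library lay above the highest wild-type library. No fold is given because wild-type reads were few. A gene that is low in wild type enters the table through R6/2, so the 12 are no sample of the 40, and requiring at least 1 CPM in 6 libraries left 6 members and 0 calls by limma.

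The remaining largest rises belong to no list used here. Ppl, the plakin periplakin, rose 3.83-fold (0.74 ± 0.27 to 2.68 ± 0.70; adjusted p = 0.00211), Cldn14, a tight junction claudin, 3.21-fold, Crybb3, a beta crystallin, 3.21-fold, and Hebp2, a heme-binding protein, 3.05-fold. Sfmbt2, a Polycomb group protein, rose 3.64-fold, Cyp4x1, a cytochrome P450, 3.45-fold, and Zfp488, a transcription factor of oligodendrocytes, 2.98-fold. For these last 3 the interaction was called, with rises of 1.03, 1.14 and 0.78 on vehicle and of 2.69, 2.43 and 2.38 under PLX3397. All 7 were higher in every R6/2 library than in any wild-type library. The naming rule took the largest rises from genes without overlap within either treatment, which favours this result. Hspa8, the constitutive heat shock cognate protein, was the 1 gene called of 24 chaperone genes. It rose 2.76-fold (7.90 ± 0.64 to 9.37 ± 0.37; adjusted p = 0.00473), and library 3 of wild type on PLX3397, at 9.12, was the wild-type library inside the R6/2 range of 9.01 to 9.88.

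Clustered protocadherins, adhesion proteins that give neurons individual surface identities, rose in 5 of 20 cases, with a median of 0.53. Pcdhb22 went from 2.81 ± 0.24 to 3.59 ± 0.29 (1.72-fold higher; adjusted p = 0.0122) and Pcdhb2 from 0.16 ± 0.74 to 1.62 ± 0.49 (2.76-fold; adjusted p = 0.0170). Their adjusted p was 0.0695 and 0.0830 with the choroid plexus covariate, and 0.0603 and 0.0778 without the 3 libraries low in cortical genes. The count was 8 without library 1 of R6/2 on vehicle, 2 without library 2 of R6/2 on either treatment or library 3 of R6/2 on PLX3397, and 3 without library 3 of any other group or library 2 of wild type on PLX3397. It was 10 with both choroid-high libraries left out, 2 without the 3 libraries low in cortical genes and 0 by limma with the choroid plexus covariate. These genes share much of their sequence, so reads may be assigned among them with error.

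The plot of gene lists sets their shares of called members and their medians side by side.

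**Figure D4:**
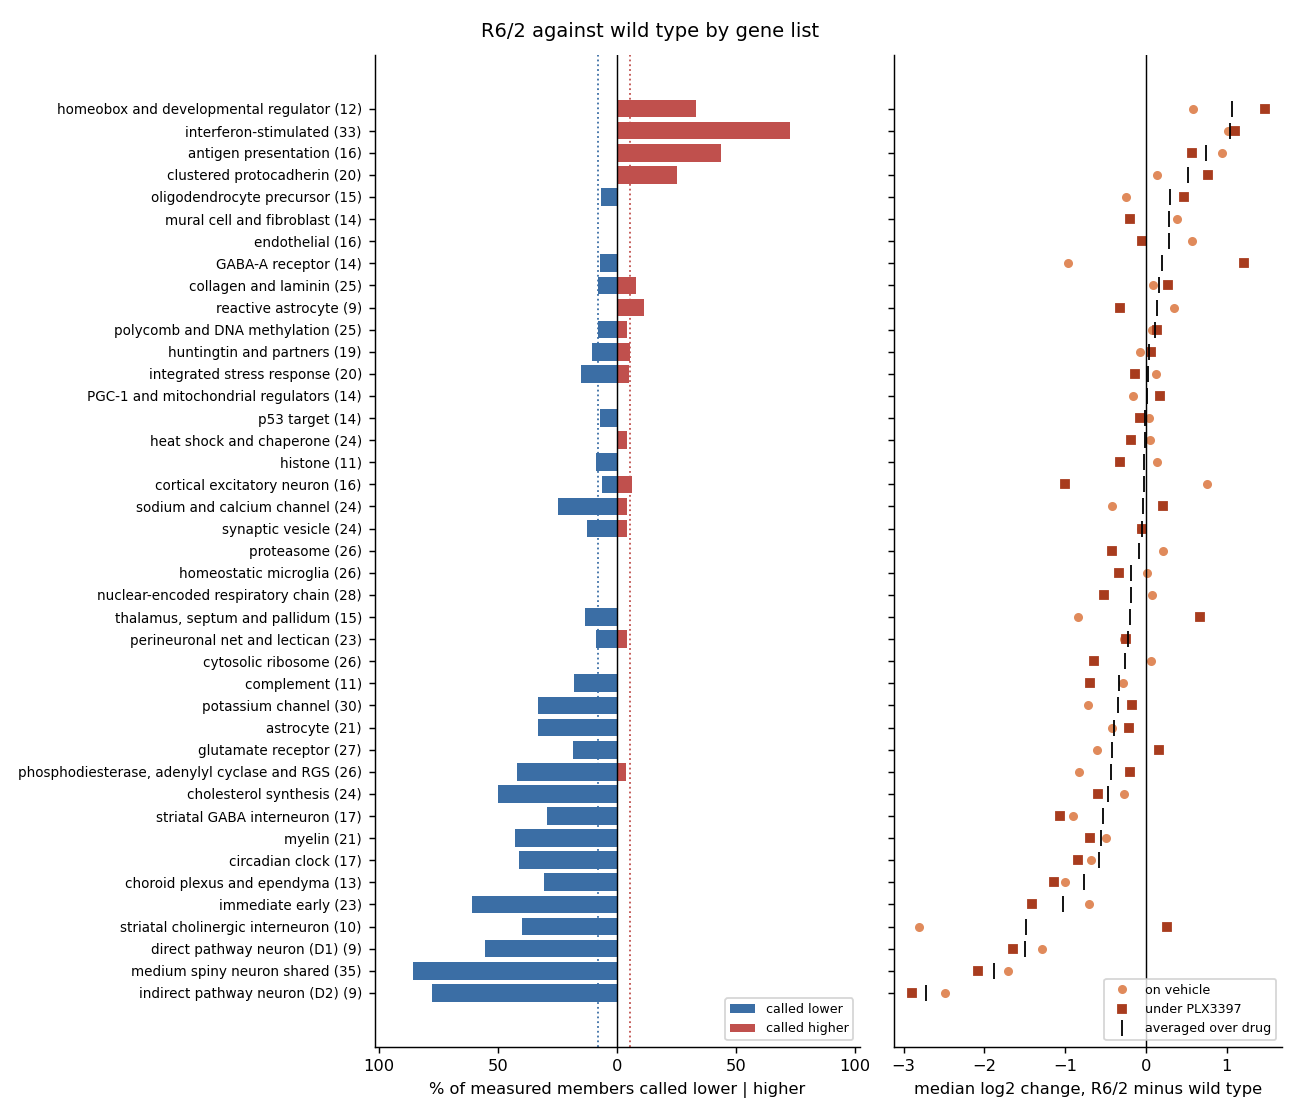
For each gene list (number of measured members in parentheses), the share called lower (blue) or higher (red) in R6/2, with dotted lines at the shares over all genes (7.94% and 5.25%), and the median log2 difference on vehicle, under PLX3397 and averaged. Lists of medium spiny neurons had negative medians and the interferon-stimulated list positive medians in both treatments, while the median of the GABA-A receptor list changed sign with treatment.

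The title of the study names the extracellular matrix and perineuronal nets, lattices of hyaluronan, lecticans and link proteins around some neurons. Of 23 such genes 3 were called, a share close to the 13.2% of all genes, and that count was 0 to 6 with 1 library left out. It was highest without library 1 of R6/2 on vehicle, and 0 by limma without library 1 of wild type or library 2 of R6/2 on vehicle or library 1 of R6/2 on PLX3397. Hapln1, a link protein, had a lowest, median and highest level of 3.04, 3.91 and 5.18 in wild type, and of 2.58, 2.75 and 3.37 in R6/2 (2.23-fold lower; adjusted p = 0.0314). Its difference was -1.91 on vehicle and -0.41 under PLX3397 (interaction adjusted p = 0.0467), and without any 1 of 6 libraries its adjusted p was 0.0539 to 0.0679. Bcan, the lectican brevican, fell 1.32-fold (8.28 ± 0.14 to 7.88 ± 0.22; adjusted p = 0.0439), with an adjusted p of 0.0532 to 0.101 without any 1 of 11 libraries. For Bcan it was 0.258 with the GC and length trend removed, 0.207 with the choroid plexus covariate and 0.169 without the 3 libraries low in cortical genes. Hapln4, another link protein, rose 1.76-fold (5.74 ± 0.61 to 6.56 ± 0.24; adjusted p = 0.0374), with an adjusted p of 0.0519 to 0.0883 without any 1 of 7 libraries and 0.164 with the choroid plexus covariate. The count of the list was 1 with that covariate. Acan, the aggrecan of perineuronal nets, was at 1.73 ± 0.58 in wild type and 2.39 ± 0.21 in R6/2 and was not called (adjusted p = 0.0709). It was called without library 2 of wild type on vehicle (0.0484) or library 1 of R6/2 on vehicle (0.0449). The same held in a group-means fit (0.0291) and with the PLX3397 libraries alone (0.0415).

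Tnr, a tenascin of these nets, and Vcan, the lectican versican, had differences of opposite sign on vehicle and under the drug. For Tnr these were -0.26 and 2.29 (interaction adjusted p = 0.0232) and for Vcan -1.37 and 0.93 (0.0241). Their averages of 1.01 and -0.22 were not called (adjusted p = 0.173 and 0.762). Tnr was called without library 1 of R6/2 on vehicle (0.0364), in a group-means fit (0.0361) and with the PLX3397 libraries alone (0.0124). Tnr was at 3.28 to 4.50 in wild type on PLX3397, below the 5.17 to 6.21 of wild type on vehicle, the 4.57 to 6.03 of R6/2 on vehicle and the 6.04 to 6.63 of R6/2 on PLX3397. Of 25 collagen and laminin genes, Col6a1, a chain of collagen VI, fell 3.00-fold without overlap, with wild-type levels of 5.88 to 6.92 and R6/2 levels of 4.20 to 5.87 (adjusted p = 0.00550). Col23a1, a membrane collagen, fell 2.63-fold (adjusted p = 0.0156), and both kept their calls with any 1 library left out. Lama4 and Lama2 rose by 0.69 and 0.72. These 4 are 16.0% of the list, close to the 13.2% of all genes called. The count of 4 became 2 without library 2 of wild type on PLX3397 or library 3 of R6/2 on either treatment, and 2 with the choroid plexus covariate.

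Among stress and complement genes, Trib3, a pseudokinase induced through Atf4, fell 3.88-fold (1.50 ± 0.57 to -0.45 ± 0.29; adjusted p = 0.00161), while Atf4, Asns and Atf3 were not called (differences 0.05, 0.14 and -0.11). Ddit4, an inhibitor of mTOR signalling, fell 1.55-fold (adjusted p = 0.0145), but its adjusted p was 0.0760 with the choroid plexus covariate and 0.0743 without the 3 libraries low in cortical genes. Cfb, factor B of the alternative complement pathway, fell 1.69-fold (2.56 ± 0.21 to 1.81 ± 0.24; adjusted p = 0.00932, or 0.0501 with the choroid plexus covariate). Of 13 choroid plexus and ependyma genes 4 fell (30.8%, against 7.94% of all genes), or 1 without the 3 libraries low in cortical genes. Among them, Ccdc153 and Rarres2 fell 7.15-fold and 3.34-fold (adjusted p = 0.0156 and 0.00493), and Ccdc153 was not called with the choroid plexus covariate (0.0887) or without the 3 libraries low in cortical genes (0.0764). That covariate is the mean of this same list and so holds Ccdc153 itself, which makes its loss there uninformative. Ttr, the transthyretin of choroid plexus, was at 12.10 in library 1 of R6/2 on vehicle and 9.89 in library 1 of wild type on PLX3397, and was not called (adjusted p = 0.923).

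Several lists held no called gene by limma. Of 26 homeostatic microglia genes 0 were called by limma, 2 had an unadjusted p under 0.05, and 0 were called by limma-voom on recovered reads. Csf1r, the target of the drug, was at 6.62 to 7.16 in the 6 vehicle libraries and at -1.04 to 1.65 in the 6 PLX3397 libraries, and its genotype difference was -0.21 (adjusted p = 0.804). Tmem119 and Cx3cr1, genes of resting microglia, were not called either (adjusted p = 0.295 and 0.403). Of 16 endothelial, 14 mural cell and fibroblast, 28 respiratory chain, 26 proteasome, 26 cytosolic ribosome and 14 mitochondrial regulator genes 0 were called by limma or limma-voom, with 2, 1, 4, 2, 3 and 3 at an unadjusted p under 0.05. Ppargc1a, a coactivator of mitochondrial genes, had differences of -0.67 on vehicle and 1.05 under PLX3397 (interaction adjusted p = 0.0182). Among 19 genes of huntingtin and its partners, Rasd2 and Sh3gl3, an endophilin, fell (6.67-fold and 1.69-fold) and Crebbp, a histone acetyltransferase, rose by 0.88, a call that held in 1 of the 12 sets that leave out 1 library. These 3 are 15.8% of that list, close to the 13.2% of all genes, and the count was 5 (3 higher and 2 lower) with both choroid-high libraries left out.

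Promoters were also searched for the cyclic AMP response element (CRE), TGACGTCA, which reads the same on both strands and through which neuronal activity is known to act. It was found in 22 of 926 genes called lower (2.38%), 14 of 630 called higher (2.22%) and 408 of 11814 measured genes (3.45%). Of immediate early genes 2 of 18 held it (11.1%). Gpr6 and Dusp1, described above, are shown as examples of falls with a match, in the same form as the interferon promoters:
Gpr6 (chr10:41072291-41072540, minus strand; match beginning 78 bases before the start): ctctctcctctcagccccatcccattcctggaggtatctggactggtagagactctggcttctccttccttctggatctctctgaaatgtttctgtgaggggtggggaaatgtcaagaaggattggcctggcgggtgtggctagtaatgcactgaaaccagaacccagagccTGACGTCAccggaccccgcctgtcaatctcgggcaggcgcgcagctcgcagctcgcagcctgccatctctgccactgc
Dusp1 (chr17:26508473-26508722, minus strand; match beginning 143 bases before the start): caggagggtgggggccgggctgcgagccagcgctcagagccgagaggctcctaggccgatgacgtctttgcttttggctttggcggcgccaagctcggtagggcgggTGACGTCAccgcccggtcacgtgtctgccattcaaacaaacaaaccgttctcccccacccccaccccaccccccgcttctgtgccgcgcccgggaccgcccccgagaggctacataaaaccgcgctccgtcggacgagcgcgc

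The difference moved with transcript GC content, in opposite senses on vehicle and under the drug. Across 14305 genes with a known GC content, Spearman's rho with the difference was 0.269 on vehicle, -0.458 under PLX3397 and -0.230 for the average, as a description of genes that share these libraries. Genes were cut into 5 equal bins by GC content. In the lowest bin (33.0 to 45.5%) the median difference was -0.22 on vehicle, 0.55 under PLX3397 and 0.13 averaged, and in the highest bin (56.2 to 72.8%) it was 0.14, -0.41 and -0.12. The lowest bin held 137 called rises and 81 called falls, the highest 91 and 389. Once a smooth trend in GC content and length was taken out of each library, 2711 genes were called for genotype (1211 higher and 1500 lower), of which 1700 had also been called before with the same sign. The interaction count went from 2617 to 442. With 1 library left out it ran from 537 without library 1 of wild type on vehicle to 3532 without library 1 of wild type on PLX3397. Leaving out the 3 libraries low in cortical genes keeps 1 library of R6/2 on PLX3397. That is too few to test an interaction, so no count is given. The part of GC content and of neighbouring tissue in the interaction was not tested further.

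**Figure D5:**
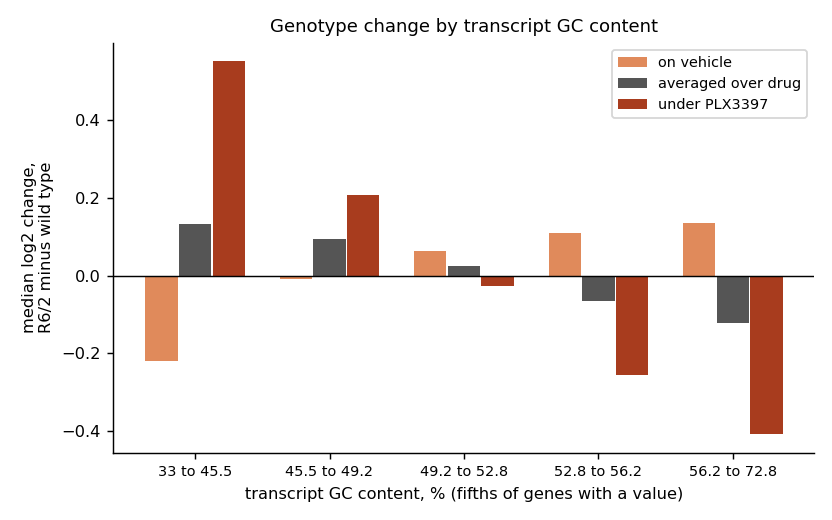
Median log2 difference, R6/2 minus wild type, in 5 equal bins of transcript GC content (2861 genes each), on vehicle, under PLX3397 and averaged over drug. The vehicle and PLX3397 medians have opposite signs in every bin, and the average lies between them.

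For some genes with a small interaction p the averaged difference was close to neither treatment's own difference. Minar1 was at 1.79 to 2.68 in wild type on vehicle, -0.72 to -0.35 in wild type on PLX3397, 1.55 to 2.12 in R6/2 on vehicle and 2.52 to 3.77 in R6/2 on PLX3397, with differences of -0.41 on vehicle and 3.70 under the drug (interaction adjusted p = 0.0139). Peg3, an imprinted zinc finger gene, had differences of -0.47 and 2.97, Ccdc85a of -0.15 and 1.47, and Enah, a regulator of actin, of -0.15 and 1.51. None of these 4 was called for genotype. Nat14 was called in both tests: its difference was -0.30 on vehicle and -1.54 under PLX3397, with an average of -0.92 (adjusted p = 0.0116, or 0.0634 with the choroid plexus covariate and 0.0849 without the 3 libraries low in cortical genes). The medium spiny neuron, clock and sterol genes named with values above had no interaction call. Of all members of those lists 2 of 35, 3 of 17 and 1 of 24 had one, against 17.0% of all genes.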

How the data were processed

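Striatal RNA of 12 mice (3 per group, each library 1 mouse) was sequenced. The submitters' processing notes name STAR, featureCounts, edgeR, limma and mm10, without versions. The deposited values, in a table named for RPKM, are log2 CPM (counts scaled to a library size). They carry a prior of 1.65 to 2.41 reads per library and no division by gene length, as their shared lowest value and their steps show. Their antilogs summed to 920461 to 1070703 per library, so the size used was not the plain library total. Whole reads were recovered for 100% of values under 500 reads (tolerance 0.1 read).

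The values were used as deposited. limma 3.58.1 (R 4.3.3) fitted genotype and treatment as additive terms with an intensity trend, and its two-sided p was adjusted by Benjamini-Hochberg over 15397 genes (threshold 0.05). The interaction came from a fit of 4 group means. Summaries used Python 3.11.15 (matplotlib 3.10.9, scipy 1.17.1, pandas 2.3.3, numpy 2.4.6). Symbols and positions were matched to RefSeq on GRCm38 for 15078 genes, promoter sequences for 11814, and GC content and length for 14305 (92.9%). Replicates correlated at 0.938 to 0.986 (Pearson's r), and no pair agreed within sampling noise (chi-square per degree of freedom 15.7 to 151). The model was tested on simulated data, with 6.67 false calls per simulation. Each simulation had 200 changed genes, independent noise per gene and an additive drug effect. Variation shared between genes, such as that of neighbouring tissue or GC content, and an interaction were not simulated.

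The comparison and its 44 gene lists (851 genes, 791 measured) were chosen with earlier results of these data known. Genes were named by rule: the 15 that rose most and the 15 that fell most among those called, at 1 CPM or more, whose genotypes did not overlap within either treatment, the 10 smallest p, up to 4 members of each list, the 10 smallest interaction p and a set of standard markers, of which the text gives a selection, together with some list members that were not called. Alternatives were leaving out each library, other normalization, filters, added CPM, GC and length, covariates, library weights, limma-voom on recovered reads, single treatments and a replicate block. Leaving out libraries high in choroid plexus genes or low in cortical genes was added after seeing the data.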

Additional observations from a re-analysis of the deposited data

Results flagged for a closer look

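The mean levels of the 44 gene lists were searched in each genotype for a library far from the other 5. This gave 9 such values, from 3 libraries, in 88 tests by Dixon's gap test, where chance alone gives about 1 in 20 tests. Library 1 of R6/2 on vehicle accounted for 5 of them. Its choroid plexus and ependyma genes were at 4.55, against 1.55 to 2.36 in the other R6/2 libraries, and its glutamate receptor genes at 5.25, against 5.75 to 6.01. Its respiratory chain genes were at 7.60 (7.19 to 7.34 in the others), its proteasome genes at 6.71 (6.36 to 6.49) and its integrated stress response genes at 4.53 (4.14 to 4.27). Library 2 of wild type on PLX3397 accounted for 3, with p53 target genes at 5.14, against 4.88 to 4.96 in the other wild-type libraries, cytosolic ribosome genes at 6.37 (5.57 to 5.86) and genes of huntingtin and its partners at 5.80 (6.19 to 6.39). Homeobox and developmental genes were at 0.0767 in library 3 of wild type on vehicle, against -0.56 to -0.40 in the other wild-type libraries.

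The R6/2 difference itself differed between PLX3397 and vehicle, by limma's interaction term, for 2617 genes in all (17.0%). Of the 122 genes followed here it did so for 17, no larger a share. The values below are the difference under PLX3397 minus that on vehicle, on the log2 scale. They were positive for Gad1 (1.19), Hapln1 (1.50), Tnr (2.55), Vcan (2.30), Ppargc1a (1.72) and Pdgfra (1.24). Among the genes that rose in R6/2 they were 1.66 for Sfmbt2, 1.29 for Cyp4x1, 1.60 for Zfp488 and -1.22 for Irf7. Abhd11os had -1.58, Nat14 -1.25 and Tmem119, a microglial gene, -1.18. Minar1 had 4.11, Peg3 3.44, Ccdc85a 1.62 and Enah 1.66. These 4 and Nat14 were taken up above for a small interaction p, so their place here follows from that choice.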

How the results depend on the processing

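The count of 2030 genes called for genotype was 3454 in a group-means fit, 3267 with library weights, 429 on the vehicle libraries alone, 775 with the choroid plexus covariate and 1131 after removal of the 3 libraries low in cortical genes. With the replicate block it was 1250. The other settings, apart from leaving out 1 library, gave 1616 to 2934, within 1.5 times, among them 1935 by limma-voom on recovered reads. With 1 library left out it was 1150 to 2760. The interaction count of 2617 was 442 with the GC and length trend removed. No count is given after removal of the 3 cortical-low libraries, which keeps 1 library of R6/2 on PLX3397. Leaving out 1 library gave 537 to 3532. Moves of over 1.5 times also came with removal of wild-type vehicle library 2 (625), R6/2 vehicle libraries 1 and 2 (1158 and 1668) and R6/2 PLX3397 libraries 1 and 2 (862 and 683). The cause of these changes was not tested.

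Replicate numbers did not pair the mice: deviations of same-numbered libraries correlated at -0.321 to 0.396 over 18 pairs, 3 of them over 0.1, and 1 of 12 libraries correlated best with its own number. With the replicate block the genotype count was 1250 and the interaction count 1432. The block together with GC and length removal gave 2057 and 0 (limma; 3048 at an unadjusted p under 0.05).

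Of the 122 genes followed, 104 were called, 98 of them with any 1 library left out. In every setting that used both treatments and tested the gene, 89 were called. Filters on CPM dropped some genes, among them Pax2, Pou4f1 and Twist1, and such gaps are not counted as lost calls. No difference of a called gene changed sign in any setting run. Calls were lost for 46 genes on vehicle libraries alone, 16 on PLX3397 libraries alone, 11 with the choroid plexus covariate, 8 after removal of the 3 cortical-low libraries and 5 with the block. The 6 libraries per genotype and about 2 prior reads limit what can be seen for low genes. In simulated data the model called 33.8% of changes of 1.5-fold, 61.7% at 2-fold and 91.5% at 4-fold. These rates hold for 200 changed genes with independent noise and no interaction, a simpler setting than the data, and may differ here.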
